A study of Mus musculus with 9 samples.

Results

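Fourth-generation (G4) Terc-/- mouse embryonic stem cells (ESCs) were compared with first-generation (G1) Terc-/- ESCs. Both groups lack Terc, so the comparison is between generations of 1 genotype. It took every library labelled G1 or G4, 3 of each, that is 6 of the 9 libraries in the series, and it covered all 623916 repeat copies with a row in the deposited table. The 3 remaining libraries are wild type (WT) ESCs, which are given beside the others as an unaltered background. All lines were of the C57BL/6 strain. The G1 cells came from embryos of Terc+/- parents and the G4 cells from embryos of third-generation (G3) Terc-/- parents. Feeder cells were taken off before RNA extraction, and total RNA was made into TruSeq libraries. Each generation was represented by its own ESCs, so generation and cell line cannot be told apart. Nothing in the labels says whether the 3 libraries of a group came from separate cultures, and the methods of the study name fewer biological replicates per line than there are libraries. The p-values therefore measure only the spread between these libraries, which may be technical.

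Terc is the RNA template of telomerase, the enzyme that extends chromosome ends, and mice without it lose telomeric DNA from one generation to the next. Retrotransposons are mobile elements copied through RNA. Long terminal repeat (LTR) elements are relatives of retroviruses, with an internal part (names ending in -int) that carries the viral genes and flanking LTRs that carry promoter and polyadenylation signals. LINE-1 elements encode their own reverse transcriptase, and SINEs are short elements that depend on the proteins of LINE-1. In ESCs most of these elements are held down by H3K9 methylation and DNA methylation. MERVL and its LTR, MT2_Mm, are best known for their transcripts in the 2-cell embryo and in rare ESCs that resemble it.

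The deposited values are estimated counts of reads per repeat copy. The library totals lay between 918879 and 1137257 counts, and 33.02 to 38.22% of the counts of a library stood in values that were not whole numbers, as arises when a read is shared between copies. A copy that lies in an exon is read with the RNA of its gene. For each gene the counts of its exonic copies were therefore added up, and such a sum stands here for that gene. No copy overlaps Terc, so the deleted gene itself could not be measured. Fewer cells of a type and less RNA per cell cannot be told apart in these bulk libraries. Nanog, Tdgf1 and Lin28a, genes expressed in ESCs, were read in all 6 libraries. Of 20 feeder fibroblast markers 4 could be tested, and their summed level was 599 to 712 counts per 1000000 counts (CPM) in G1 and 651 to 739 CPM in G4. WT was lower, at 339 to 379 CPM. By the test given below 1 of the 4 rose and none fell in G4, against 20.6% and 22.7% of all tested genes. The Y-linked genes Kdm5d, Ddx3y, Eif2s3y and Uty had counts in every library, and Xist had 4 to 10 counts per library in G1 and G4.

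Repeat RNA differed between the generations at many subfamilies and in both directions. Of 853 subfamilies tested, 360 passed the quasi-likelihood test of edgeR at a p under 0.05 after Benjamini-Hochberg adjustment and are called here, which is 42.2% of those tested. Of these, 166 (19.5%) rose and 194 (22.7%) fell in G4, and the median subfamily changed by -0.02 on the log2 scale. A change of more than 2-fold was found in 31 of the subfamilies that rose and in 23 that fell. At the level of single copies 5131 of 13278 (38.6%) were called, with 2564 (19.3%) that rose and 2567 (19.3%) that fell. Among sums over exons 1952 of 4506 genes (43.3%) were called, with 929 (20.6%) that rose and 1023 (22.7%) that fell. The split between rises and falls depended on the scaling. With library totals in place of the trimmed mean of M values (TMM), which moved the median subfamily from -0.02 to 0.12, 261 subfamilies rose and 101 fell.

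**Figure D1:**
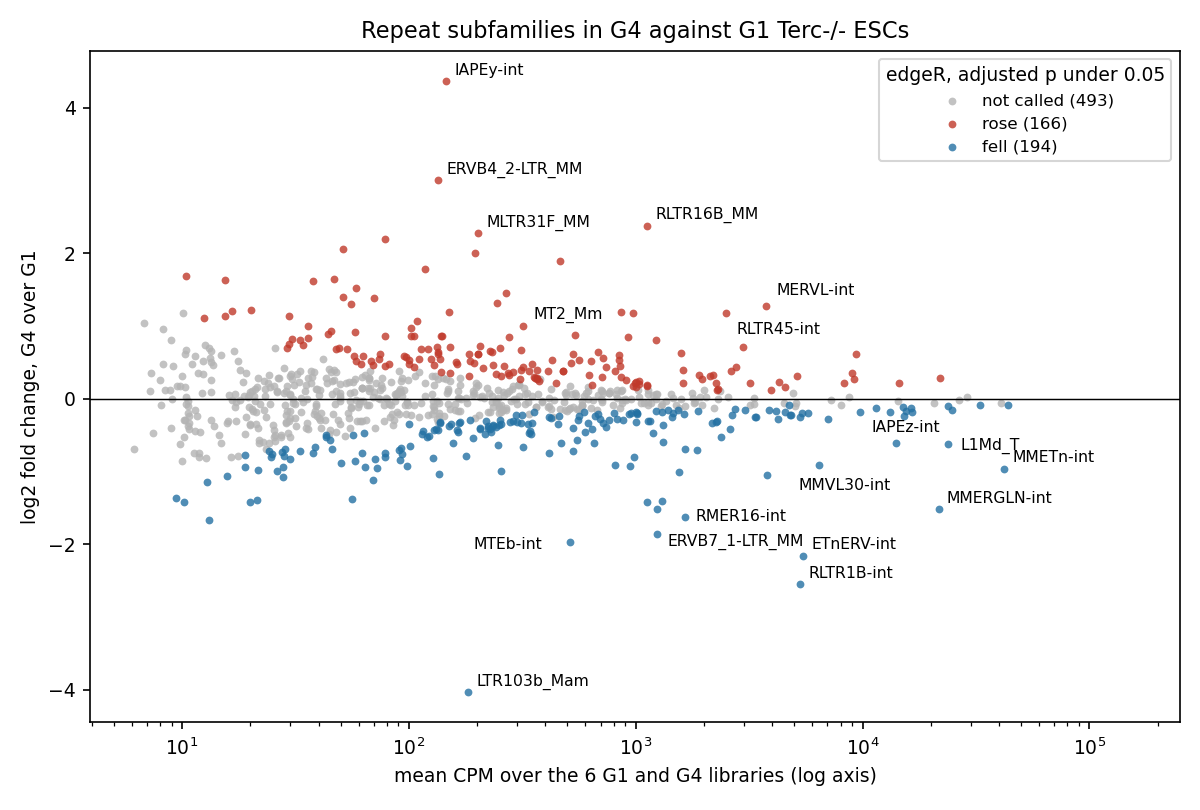
Each point is 1 of 853 tested repeat subfamilies, placed by its mean CPM over the 6 G1 and G4 libraries (log axis) and its log2 fold change in G4 over G1. Red points rose and blue points fell at an adjusted p under 0.05. IAPEy-int and ERVB4_2-LTR_MM stand at the top, LTR103b_Mam at the bottom, and the abundant ETnERV-int, RLTR1B-int, MMERGLN-int, MMETn-int and L1Md_T lie below 0.

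The share of LTR elements in all counts was lower in G4, and the share of SINEs was higher. The shares of a library sum to a fixed total, so they are not independent of each other. LTR elements held 33.7, 34.05 and 33.3% of the counts in the G1 libraries and 30.2, 30.9 and 31.0% in the G4 libraries, a difference of -3.02 percentage points. SINEs held 46.9% ± 0.368 (SD, n = 3) in G1 and 49.6% ± 0.219 (SD, n = 3) in G4. The 3 libraries of each group did not overlap in these 2 classes (exact permutation test, two-sided, p = 0.1, the smallest that 3 against 3 libraries allow). LINEs held 15.9% ± 0.228 in G1 and 16.2% ± 0.218 in G4 (SD, n = 3; exact permutation p = 0.2), and DNA transposons 3.50% and 3.48% (p = 0.3).

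The falls at a few loci were larger in counts than the difference in the LTR share. Called copies of 1 direction within 10 kb of each other were joined into loci, and the 5 loci with the largest fall in counts held 6.60% ± 0.201 of all counts in G1 and 2.07% ± 0.0756 in G4 (SD, n = 3). Without their 32 copies the LTR share was 29.0% ± 0.257 in G1 and 29.2% ± 0.405 in G4, a difference of 0.19 percentage points. SINEs then differed by 0.47 and LINEs by -0.46 percentage points. These loci were ranked by their fall in the same libraries, and no rises were left out. A smaller LTR difference was thus bound to follow, and how widely it is spread over loci was not tested. The first of these loci is an MMERGLN provirus, of the GLn group of gammaretrovirus relatives, in exons of Gm20388 and Gm42047 (mm10, chr8:121832845-121844255). It had 30907, 32036 and 30573 CPM of the library total in G1 and 10489, 10978 and 11153 CPM in G4, 2.87-fold lower. WT was at 29582 CPM, close to G1. The second is an ETn element far from any gene (chr16:25517734-25523269, nearest gene Gm18896), with 12367, 12623 and 12175 CPM in G1 and 1148, 1233 and 1288 CPM in G4, 10.1-fold lower. ETn elements are non-autonomous relatives of the MusD retrovirus. WT lay between the generations at this locus, at 7744 CPM.

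The other 3 loci of the 5 were ETn elements on chr4:124353468-124358613 (nearest gene Gm22983) and chr4:137381805-137386399 (near 2810405F17Rik) and an RLTR1B provirus on chr X:164048342-164053974 (nearest gene Siah1b). The first of them fell 3.90-fold, from a mean of 6785 to 1738 CPM, and the second 1.66-fold, from 10324 to 6224 CPM. The RLTR1B locus had 5544, 5350 and 4985 CPM in G1 and 718, 697 and 645 CPM in G4, 7.71-fold lower. Further ETn and RLTR1B loci showed deeper falls from lower levels. A second RLTR1B provirus (chr11:57554725-57560469, nearest gene Gm12243) fell 10.3-fold, from 3316 to 321 CPM, and an ETn element in an intron of Slc4a4 (chr5:89203777-89209330) fell 13.2-fold, from 2854 to 216 CPM. At each of these 7 loci the G1 and G4 libraries did not overlap. The loci were joined from called copies and ranked by their fall in the same libraries, so this is a description.

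The loci with the largest rise in counts were mostly exons of genes. The repeats of Tdgf1, a co-receptor of Nodal signalling, had 6823, 6201 and 6304 CPM in G1 and 15290, 19519 and 17796 CPM in G4, 2.72-fold higher. Those of Platr14, a non-coding transcript of ESCs, rose 4.78-fold, from a mean of 875 to 4181 CPM. Tfcp2l1, a transcription factor of naive pluripotency, went from a mean of 2125 to 4254 CPM and Nanog rose 1.82-fold. RLTR19-int copies in exons of Hnrnpa3, which encodes an RNA-binding protein, went from 5459 to 8823 CPM. WT was below G1 at Tdgf1, Tfcp2l1 and Nanog, at 4262, 1252 and 1284 CPM.

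**Figure D2:**
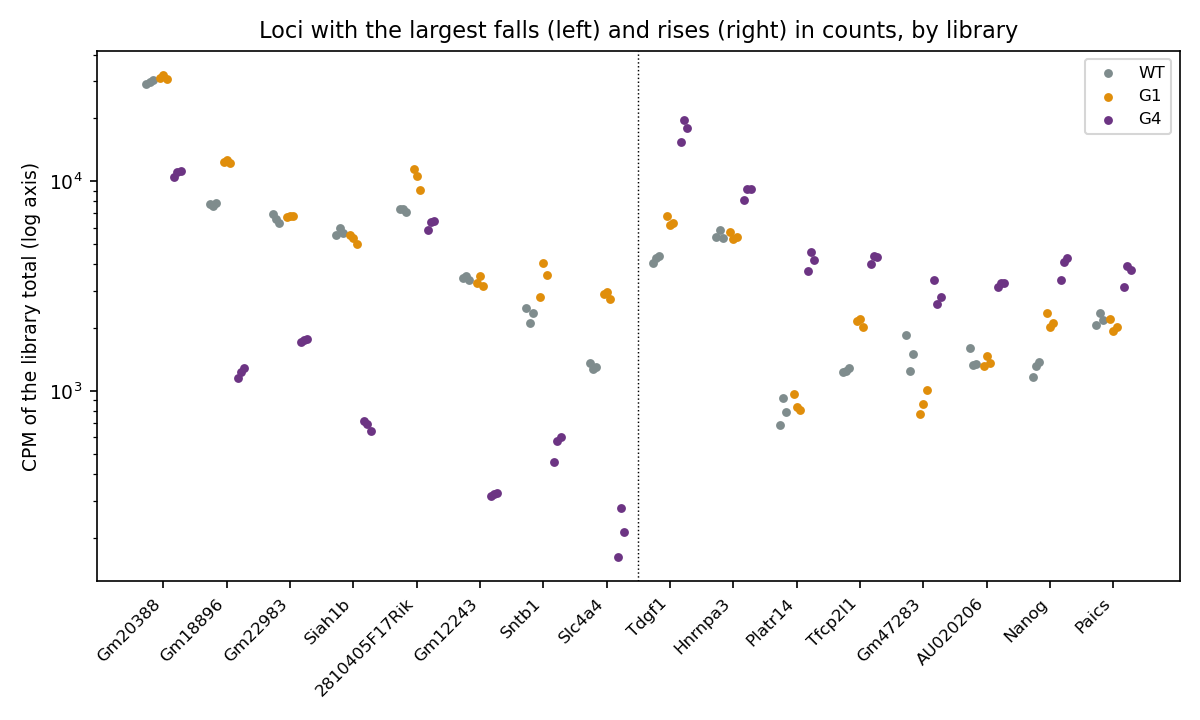
CPM of the library total (log axis) in each of the 3 WT, 3 G1 and 3 G4 libraries at the 8 loci with the largest fall (left of the dotted line) and the 8 with the largest rise (right) in counts from G1 to G4; each point is 1 library and each locus is named by its gene or nearest gene. The G4 points lie below the G1 points at every locus on the left and above them at every locus on the right.

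Among subfamilies, the 10 largest falls were led by LTR103b_Mam, RLTR1B-int and ETnERV-int, and all but 1 of the 10 were LTR elements. RLTR1B-int, the internal part of an LTR provirus, had 9248, 9319 and 8638 CPM in G1 and 1557, 1561 and 1531 CPM in G4. Its log2 fold change was -2.55 (SE 0.0413, adjusted p = 2.07e-22, edgeR). WT had 11638 CPM ± 459 (SD, n = 3), above both generations. RMER16-int (log2 -1.63) and LTRIS2 (-1.51) fell too. Copies of both lie with RLTR1B-int at the loci near Siah1b and Gm12243, so these falls are not independent. Over copies whose values were whole in all 9 libraries RMER16-int changed by 0.36 (adjusted p = 0.0211, edgeR). In all, 18 of the RLTR1B-int copies tested lay over 5 kb from genes, of which 15 fell and none rose. Among all tested copies that far from genes 30.2% fell and 22.3% rose.

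ETnERV-int and ERVB7_1-LTR_MM, an LTR found at some of the same loci, were lower in all 3 G4 libraries. ETnERV-int had 8925, 8977 and 8870 CPM in G1 and 1860, 2121 and 2027 CPM in G4 (log2 -2.15, SE 0.0426, adjusted p = 6.6e-21, edgeR), and ERVB7_1-LTR_MM went from 1945 CPM ± 79.3 to 538 CPM ± 70.6 (SD, n = 3; log2 -1.85). The related MMETn-int went from 55724 CPM ± 1785 to 28625 CPM ± 1860 (log2 -0.96). RLTR13G, an LTR found at some of the same loci, fell by 1.05 on the log2 scale. WT lay between G1 and G4 for these 4 names, with 39337 CPM ± 1729 for MMETn-int. Over the copies whose values were whole in all 9 libraries, the change was 0.14 for ETnERV-int, -0.03 for ERVB7_1-LTR_MM (adjusted p = 0.928, edgeR), 0.15 for RLTR13G and 1.44 for MMETn-int. Such copies held 2.20% of the counts of ETnERV-int. The 10 ETn and MusD names gave 4 rises and 3 falls in all, with ETnERV2-int among the rises (from 144 to 393 CPM). Of all tested subfamilies 19.5% rose and 22.7% fell. RLTRETN_Mm, an LTR named for ETn, was not called (log2 0.12), and of its 30 tested copies 13 rose and 5 fell.

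Of the 10 falls, 3 followed a single exon. LTR103b_Mam had 98.8% of its counts in 1 copy (chr14:63199746-63199900) in an exon of Gata4, a transcription factor of primitive endoderm, and went from 334, 327 and 372 CPM in G1 to 11.9, 26.4 and 23.7 CPM in G4 (log2 -4.03, SE 0.157, adjusted p = 1.74e-15, edgeR). MTEb-int had 85.7% of its counts in a copy in an exon of Loxl2, a collagen crosslinking enzyme (chr14:69694010-69694554). It fell by 1.97 on the log2 scale, and without that copy the change was -0.02. FordPrefect, a DNA transposon, had 94.9% of its counts in a copy in an exon of Gm26917, and its change of -1.42 became 0.40 (adjusted p = 0.134) without it. MMERGLN-int (from 32053 to 11230 CPM, log2 -1.51) likewise rested on the Gm42047 provirus, with a change of 0.06 without that copy. Its LTR, MMERGLN_LTR, fell by 1.41, and by 1.26 without its largest copy, while over copies with whole values it changed by 0.21 (adjusted p = 0.472, edgeR). The called copies at the Gm42047 provirus include 3 of the LTR class. The value without the largest LTR copy may therefore still hold the other LTR of that provirus.

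The 10 largest rises were led by IAPEy-int. This internal part of an IAP-type retrovirus had 10.95, 12.8 and 16.6 CPM in G1 and 222, 307 and 303 CPM in G4, against 30.8 CPM ± 2.76 (SD, n = 3) in WT. The log2 fold change was 4.36 (SE 0.197, adjusted p = 2.27e-14, edgeR), and every G4 library lay far above every G1 and WT library. The largest copy, in an intron of Mtmr2 (chr9:13754622-13757339), held 43.9% of the counts, and the change was 3.69 without it and 2.94 over copies more than 5 kb from genes. An adjoining IAPEy-int piece in Mtmr2 (chr9:13757338-13758017) had 0 counts in G1 and 198 in G4 over the group. It stays in the value without the largest copy, so that value still holds part of the same locus. ERVB4_2-LTR_MM, the LTR of an endogenous betaretrovirus, had 24.1, 30.1 and 34.2 CPM in G1 and 203, 273 and 240 CPM in G4 (log2 3.01, SE 0.172, adjusted p = 2.09e-12). It was spread over more loci, with 13.8% of the counts in its largest copy and a change of 3.03 without it.

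RLTR16B_MM and MLTR31F_MM, both LTRs, followed. RLTR16B_MM had 394, 344 and 351 CPM in G1 and 1659, 2101 and 1903 CPM in G4 (log2 2.38, adjusted p = 2.96e-16, edgeR). Its largest copy lies over the start and an exon of Platr14 and held 56.0% of its counts, the change was 2.96 without that copy, and over copies more than 5 kb from genes it was 0.05. MLTR31F_MM went from 68.4 CPM ± 15.9 to 337 CPM ± 48.5 (SD, n = 3; log2 2.28). Here the largest copy, at Gm32885, held 61.3% of the counts, and without it the change was 0.52. Of the other 6 names, ERVB3_1-I_MM-int (log2 2.19), RLTR9A2 (2.05) and RLTR34B_MM (from 78.7 CPM ± 6.41 to 314 CPM ± 51.6, SD, n = 3) did not pass the threshold without their largest copy, with changes of 0.68, 0.19 and 0.34. Ricksha_c (1.90), RMER16B2 (1.79) and MER91A (1.52) did, with 1.74, 1.10 and 0.85, but over copies with whole values Ricksha_c changed by -0.84 (adjusted p = 0.0218, edgeR).

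MERVL, the retrovirus of the 2-cell embryo, was higher in G4 in both of its parts. MERVL-int had 2128, 2309 and 2146 CPM in G1 and 5413, 5506 and 5090 CPM in G4, with WT at 2063 CPM ± 67.2 (SD, n = 3). The log2 fold change was 1.28 (SE 0.0455, adjusted p = 3.33e-16, edgeR) and 2.24 over copies more than 5 kb from genes. MT2_Mm had 517, 516 and 549 CPM in G1 and 1171, 1271 and 1162 CPM in G4 (log2 1.19, SE 0.0658, adjusted p = 1.17e-12). The G1 and WT libraries lay close to each other and the G4 libraries above both. Of the 8 names of the MERVL and MT2 list, 3 rose and none fell, against 19.5% of all tested subfamilies that rose and 22.7% that fell. RLTR45-int, of a rodent ERV group, moved in the same direction, from 1458, 1600 and 1509 CPM to 3373, 3463 and 3537 CPM (log2 1.18, SE 0.0496, adjusted p = 6.06e-15). Of 9 tested names from RLTR44 to RLTR46, 6 rose and none fell, with a median of 0.86.

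IAPEz-int, the internal part of an IAP retrovirus, and 3 young LINE-1 subfamilies were lower in G4. IAPEz-int had 16903, 17354 and 16642 CPM in G1 and 10157, 11881 and 11511 CPM in G4, with WT above both at 28247 CPM ± 617 (SD, n = 3). The log2 fold change was -0.60 (SE 0.0417, adjusted p = 6.22e-11, edgeR) and -1.40 over copies more than 5 kb from genes. Its LTR IAPLTR1_Mm fell by 0.47, while IAPEY3-int was 75.6, 98.4 and 75.1 CPM in G1 and 132, 99.1 and 120 CPM in G4 (log2 0.48, adjusted p = 0.0162), with groups that barely failed to overlap. The call of IAPEY3-int was lost without G1 replicate 1 (adjusted p = 0.0688), G1 replicate 3 (0.0623) or G4 replicate 1 (0.0567), without its largest copy (0.0557) and over copies with whole values (0.514, edgeR). L1Md_T, a young LINE-1 subfamily that holds full-length members, had 28359, 29440 and 28219 CPM in G1 and 18590, 18684 and 18757 CPM in G4 (log2 -0.62, SE 0.0275, adjusted p = 1.89e-14). L1Md_Gf went from 1055 CPM ± 9.44 to 560 CPM ± 39.2 (log2 -0.91) and L1Md_A from 3577, 3761 and 3628 CPM to 3064, 3100 and 3082 CPM (log2 -0.25). Of the 6 young LINE-1 names 3 fell and 1, L1Md_F, rose (0.16, adjusted p = 0.0488, edgeR), while 22.7% of all tested subfamilies fell and 19.5% rose. The call of L1Md_F was lost without any 1 of 4 of the 6 libraries (G1 replicates 1 and 2, G4 replicates 2 and 3), without its largest copy and over copies with whole values, and far from genes its change was -0.10. For IAPEz-int, L1Md_Gf and L1Md_A the test did not pass over copies with whole values only, where L1Md_A changed by 0.13.

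The other groups were read by their counts of names, beside the 19.5% of all tested subfamilies that rose and the 22.7% that fell. Among 28 tested ORR1 names 13 rose and none fell (median 0.11), and among 49 RMER names 21 rose and 9 fell (median 0.17). In the MMERVK9 and RLTR9 list 8 of 16 rose and 1 fell, led by RLTR9E (from 898 CPM ± 42.5 to 1569 CPM ± 111, SD, n = 3, log2 0.81). The VL30 and MuLV list moved the other way, with 7 of 11 names that fell and 1 that rose (median -0.31), and MMVL30-int, a VL30 element, went from 8388 CPM ± 425 to 4469 CPM ± 399 (log2 -0.91, and 0.15 over copies with whole values). Among 49 ancient MLT and MST names 3 rose and 8 fell, and among 85 ancient LINE-1 names 4 rose and 27 fell (median -0.13). The medians of the ORR1 and ancient LINE-1 names are smaller than the shift of the median subfamily with library totals, from -0.02 to 0.12. Of the 15 B1 names, SINEs derived from 7SL RNA, 2 rose and 11 fell, all by less than 0.3 on the log2 scale, and the sign of several turned with library totals in place of TMM.

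Within subfamilies the copies were tested one by one. Of 69 tested MERVL-int copies 50 rose and 4 fell, and of 53 RLTR45-int copies 42 rose and none fell. The medians were 3.13 and 2.75 on the log2 scale, above the change of the subfamily as a whole. Only copies that passed the filter on low counts were tested, out of 1065 for MERVL-int. Some had 0 counts in G1 and few or none in WT, and passed through G4. These counts of rises and medians therefore follow in part from the filter. RLTR9E had 16 rises and 1 fall among 31 copies, and L1_Mus1, an older mouse LINE-1, 43 rises and 8 falls among 112. On the side of the falls, RLTR1B-int had 36 falls and 3 rises among 47 copies, MMVL30-int 32 and 4 among 48, MMERVK10C-int 18 and 5 among 36, and L1Md_Gf 10 and none among 23. IAPEz-int copies moved both ways, with 109 falls and 25 rises among 240 (median -1.31), and so did MMETn-int copies, with 40 falls and 33 rises among 104. L1Md_T copies fell in 158 of 586 cases and rose in 28. The shares of rises and falls over all tested copies, 19.3% each, are the background for these counts. Copies of 1 subfamily share reads, so they are not independent.

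**Figure D3:**
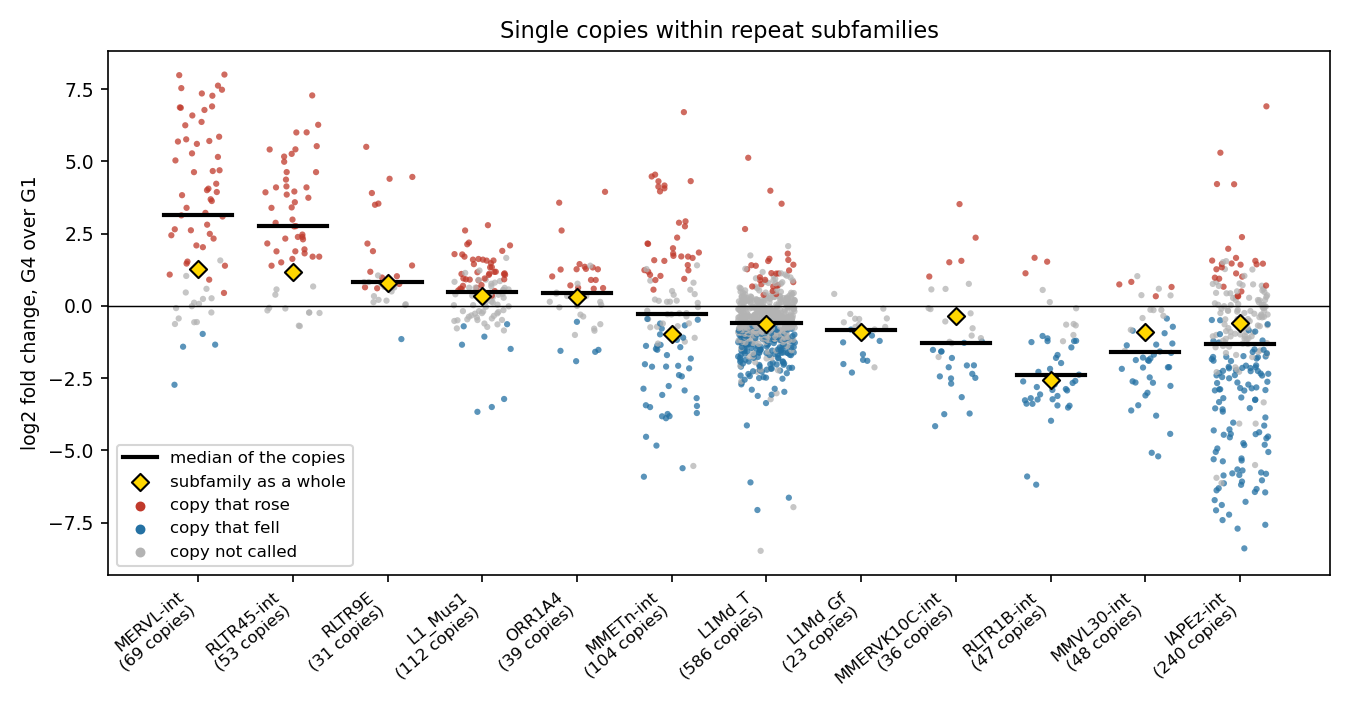
Log2 fold change in G4 over G1 of each tested copy in 12 subfamilies, in red where it rose, blue where it fell and grey where it was not called. The black bar is the median of the copies and the yellow diamond the subfamily as a whole. MERVL-int and RLTR45-int copies lie mostly above 0, RLTR1B-int, MMVL30-int and IAPEz-int copies mostly below, and MMETn-int copies spread to both sides.

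Young and long copies fell more often than copies at large, of which 19.3% fell and 19.3% rose. Of 1816 tested copies under 5% diverged from their consensus, 508 (28.0%) fell and 303 (16.7%) rose, with a median of -0.39, while of 8491 copies at 15% or more 18.2% fell and 18.3% rose. Among LINEs under 5% diverged 187 of 651 fell and 52 rose. Copies of 2000 bp or more gave 371 falls and 219 rises among 1330. Copies over 5 kb from genes gave 301 falls and 222 rises among 997, but a fit on these copies alone, scaled by themselves, gave 234 falls and 237 rises. Copies between 5% and 15% diverged went the other way, with 709 rises and 513 falls among 2971. These groups overlap, since the young copies are also the long ones, with a median length of 1784.5 bp, and copies of 1 locus share their RNA.

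Some copies were read in 1 generation only. With 0 counts in all 3 G1 libraries, 54 copies rose in G4, 39 of them LTR elements, by at least 11.9-fold to at least 151-fold against a floor of 3 counts over the group. With 0 counts in all 3 G4 libraries, 65 copies fell, 43 of them LTR elements, by at least 1.73-fold to at least 114-fold against the same floor. A copy at 0 in 1 generation passed the filter on low counts through the other groups, so these counts are descriptions. A MuLV-int copy in an intron of Def8 (chr8:123426327-123434006) had 0 counts in G1 and 162, 161 and 148 counts in G4, at least 151-fold higher. An ORR1A0 copy in an intron of Gm48228 (chr13:62112043-62112387), whose values were all whole, had 0 counts in G1 and 50, 102 and 100 in G4, at least 80.7-fold higher. An RLTR6B_Mm LTR 584 bp from Zscan4e (chr7:11305243-11305794) had 0 counts in G1 and 36, 76 and 58 in G4, at least 54.5-fold higher. Zscan4 genes are markers of 2-cell-like ESCs.

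Deep falls of single copies were seen in IAPEz-int proviruses and in 1 MTA element. An MTA_Mm element far from genes (chr13:30499246-30500736, nearest gene Uqcrfs1) had 72, 104 and 76 counts in its LTR in G1 and 0 in all 3 G4 libraries, at least 87.4-fold lower. Its internal part MTA_Mm-int had 104, 118 and 106 counts in 1 piece in G1 and none in G4, at least 114-fold lower. An IAPEz-int provirus near Gm25099 (chr4:117192478-117198858) went from 357, 433 and 302 counts to 3, 0 and 5, 142-fold lower (95% counting interval 71.8 to 330), and had 3235 counts in WT. A second near Chrac1 (chr15:73083462-73087600) went from 231, 309 and 236 counts to 0, 0 and 5, 161-fold lower (68.9 to 498.6). An IAPEz-int copy in an intron of Nrros (chr16:32148445-32149702) rose, from 3, 5 and 6 counts to 176, 205 and 209 counts (log2 5.30, SE 0.241, adjusted p = 1.17e-23, edgeR). The intervals cover counting error only.

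Single L1Md_T and MERVL-int copies also went both ways. An L1Md_T copy in an intron of Lgmn, which encodes the protease legumain (chr12:102406083-102412775), fell from 1855, 2043 and 1718 counts to 211, 286 and 289, with 12038 counts in the 3 WT libraries together (log2 -2.90, SE 0.0811, adjusted p = 3.56e-32, edgeR). An L1Md_T copy 7857 bp from Slco1c1 (chr6:141578034-141584482) rose from 9, 6 and 4 counts to 31, 44 and 53 (log2 2.66). A MERVL-int copy in an intron of Bola1 (chr3:96200863-96206188) rose from 1, 2 and 2 counts to 132, 172 and 158 (log2 6.37, adjusted p = 2.9e-22), and a copy in an intron of Snapc3 (chr4:83443299-83448623) fell from 172, 270 and 219 counts to 84, 89 and 97 (log2 -1.34). A lack of overlap between the groups of 3 libraries was a condition for naming these copies, and 48.5% of all tested copies met it.

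Of 12905 tested copies on the chromosomes used for promoters, 82 covered at least 50 bp of an annotated promoter, and 41 of these were called, with 24 rises and 17 falls, against 38.6% of all tested copies called and 19.3% in each direction. The promoters below were chosen after their values were seen, as cases in which an LTR on the strand of the gene lies over its start. They are the RefSeq promoter sequences of GRCm38.p6, from 250 bases before to 50 after the start, written 5′ to 3′ on the strand of the gene, with the part inside the LTR in capitals.

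Gm32885 (chr15:97167195-97167494, minus strand, MLTR31F_MM): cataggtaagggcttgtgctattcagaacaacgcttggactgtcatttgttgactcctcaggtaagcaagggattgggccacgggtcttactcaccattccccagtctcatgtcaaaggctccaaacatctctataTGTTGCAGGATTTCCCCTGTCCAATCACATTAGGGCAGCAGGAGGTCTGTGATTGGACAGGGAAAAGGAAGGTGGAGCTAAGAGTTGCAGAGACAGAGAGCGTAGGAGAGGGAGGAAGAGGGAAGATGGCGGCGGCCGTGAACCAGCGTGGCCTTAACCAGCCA
Platr14 (chr2:104559209-104559508, plus strand, RLTR16B_MM): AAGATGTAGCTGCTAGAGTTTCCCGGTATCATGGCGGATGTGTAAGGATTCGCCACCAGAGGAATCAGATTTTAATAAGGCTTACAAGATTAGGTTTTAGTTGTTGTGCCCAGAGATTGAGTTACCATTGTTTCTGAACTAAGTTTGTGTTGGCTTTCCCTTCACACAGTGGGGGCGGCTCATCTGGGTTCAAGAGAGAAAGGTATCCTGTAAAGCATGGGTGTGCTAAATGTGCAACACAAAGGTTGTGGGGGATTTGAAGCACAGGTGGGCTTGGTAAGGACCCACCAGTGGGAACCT
Arih2 (chr9:108653632-108653931, minus strand, MT2_Mm): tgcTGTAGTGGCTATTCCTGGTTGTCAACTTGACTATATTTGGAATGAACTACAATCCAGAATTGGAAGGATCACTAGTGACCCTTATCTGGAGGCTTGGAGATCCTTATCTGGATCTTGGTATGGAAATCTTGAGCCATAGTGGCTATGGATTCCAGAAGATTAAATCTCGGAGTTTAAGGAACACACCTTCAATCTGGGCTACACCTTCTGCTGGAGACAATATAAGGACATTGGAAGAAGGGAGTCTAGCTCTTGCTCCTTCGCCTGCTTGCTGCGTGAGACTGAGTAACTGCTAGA
C330004P14Rik (chr10:15791527-15791826, plus strand, RLTR9E): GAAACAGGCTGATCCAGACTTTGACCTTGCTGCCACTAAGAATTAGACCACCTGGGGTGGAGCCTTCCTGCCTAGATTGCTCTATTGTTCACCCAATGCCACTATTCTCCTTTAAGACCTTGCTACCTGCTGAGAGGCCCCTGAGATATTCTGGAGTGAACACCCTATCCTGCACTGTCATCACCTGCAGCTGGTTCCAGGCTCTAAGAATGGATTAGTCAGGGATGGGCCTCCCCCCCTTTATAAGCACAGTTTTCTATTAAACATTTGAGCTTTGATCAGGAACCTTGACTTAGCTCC
Gm34581 (chr12:50980463-50980762, plus strand, ERVB7_1-LTR_MM): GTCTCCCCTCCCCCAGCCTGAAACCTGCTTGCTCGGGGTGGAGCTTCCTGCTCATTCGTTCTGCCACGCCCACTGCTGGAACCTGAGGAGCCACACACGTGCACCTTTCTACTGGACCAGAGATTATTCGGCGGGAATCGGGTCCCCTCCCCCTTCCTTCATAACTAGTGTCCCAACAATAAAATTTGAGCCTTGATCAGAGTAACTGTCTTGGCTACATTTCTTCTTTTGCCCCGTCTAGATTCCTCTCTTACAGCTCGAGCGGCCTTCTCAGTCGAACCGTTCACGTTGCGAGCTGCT

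The LTRs over the first 4 of these promoters rose in G4 and the fifth fell. The MLTR31F_MM copy at Gm32885 had 2, 2 and 1 counts in G1 and 203, 330 and 258 counts in G4 (log2 7.14, SE 0.279, adjusted p = 3.43e-26, edgeR), and the exons of Gm32885, a non-coding gene, rose with it from 0 counts in all G1 libraries to 55.0 CPM ± 8.28 (SD, n = 3). The RLTR16B_MM copy at Platr14 had 260, 249 and 212 counts in G1 and 898, 1245 and 1173 in G4 (log2 2.13, SE 0.0995, adjusted p = 3.37e-23). The MT2_Mm copy lies over 1 annotated start of Arih2, which encodes a ubiquitin ligase, and had 0, 3 and 2 counts in G1 and 29, 56 and 49 in G4 (log2 4.58, SE 0.488). The RLTR9E copy at C330004P14Rik went from 5, 10 and 6 counts to 24, 41 and 34 (log2 2.16), and the ERVB7_1-LTR_MM copy at Gm34581 from 33, 27 and 17 to 3, 3 and 6 (log2 -2.70, SE 0.436, adjusted p = 1.85e-06). In none of the 5 did the groups overlap, which was also so for 48.5% of all tested copies. The TATA box letters TATAAA stood in 1 of these 5 windows, that of C330004P14Rik, on the strand opposite to the gene, and 13.6% of 32851 RefSeq promoters hold them on either strand. The octamer ATTTGCAT, read by Oct4 and other POU factors, stood in none of the 5 windows and in 1.74% of all promoters on either strand.

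Copies on proximal chromosome 6 were lower in G4 almost throughout. Over all tested copies 19.3% fell and 19.3% rose. Between 0 and 80 Mb, a stretch bounded after its values were seen, 133 of 240 tested copies (55.4%) fell and 7 rose. Their median was -1.06 on the log2 scale. The change was below 0 at 207 of these copies (86.3%), against 52.2% of all tested copies. The median was below 0 in each class, at -1.37 for LTR copies, -1.15 for LINEs, -0.95 for SINEs and -0.25 for 13 DNA transposon copies. Of 73 genes in the stretch 46 fell and 1 rose, with a median of -0.96, while 22.7% of all tested genes fell and 20.6% rose. The stretch held 1.61, 1.64 and 1.63% of all counts in the G1 libraries, 0.932, 0.893 and 0.900% in the G4 libraries and 1.60% ± 0.0342 (SD, n = 3) in WT, so G1 and WT lay together and G4 apart. In each of its 8 windows of 10 Mb the median lay between -1.26 and -0.60. Distal to 80 Mb 63 copies rose and 68 fell of 341, with a median of -0.08. All members of a chromosome share its copy number, which was not measured here.

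**Figure D4:**
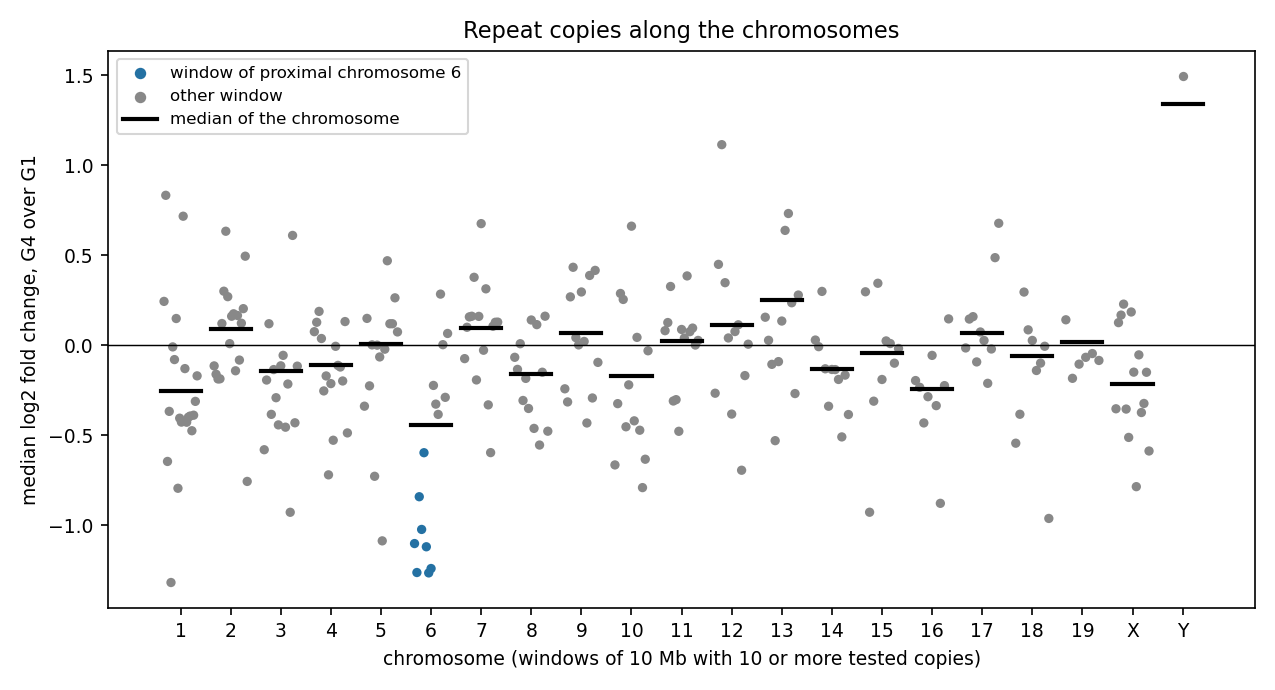
Median log2 fold change in G4 over G1 of the tested repeat copies in each 10 Mb window with 10 or more of them, in chromosomal order within each chromosome; black bars are chromosome medians. The 8 blue windows of proximal chromosome 6 lie between -1.26 and -0.60, and the window of chromosome Y lies above all others. In that window of chromosome Y, 28 of the copies that rose lie in introns of 1 gene, Gm47283.

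Other windows rose as groups. On chromosome Y 38 of 50 tested copies rose and 2 fell (median 1.34), and 33 of the 34 between 90 and 100 Mb rose. Of these, 28 form 1 run in introns of Gm47283 (chrY:90791873-90811351), and copies of 1 locus share their RNA. The window from 90 to 100 Mb also holds the pseudoautosomal region, whose sequence X and Y share. The Y-linked gene Kdm5d, outside this window, had 5, 17 and 11 counts in G1 and 38, 41 and 50 in G4, while Ddx3y had 27, 45 and 43 and then 49, 55 and 80. On chromosome 12 between 20 and 30 Mb 54 of 91 copies rose and 4 fell (median 1.11), and on chromosome 13 between 60 and 70 Mb, where zinc finger genes are clustered, 82 of 216 rose and 16 fell (median 0.64). Within 1 Mb of the distal chromosome ends 46 of 183 copies (25.1%) rose and 26 (14.2%) fell, with a median of 0.18. The median was -0.06 for copies more than 20 Mb away, and 19.3% of all tested copies rose and 19.3% fell. Chromosome X is included here, and at its end, from 170 Mb, 7 of 8 tested copies rose (median 1.60). The ends were not tested without X. Windows were picked by their values, so these counts are descriptions.

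Genes of primitive endoderm and of its basement membrane were lower in G4. Of 26 such genes 8 could be tested, of which 6 fell and 1 rose, against 22.7% of all tested genes that fell and 20.6% that rose. Col4a2, a collagen IV chain, had 1596, 1548 and 1632 CPM in G1 and 77.5, 83.4 and 95.9 CPM in G4 (log2 -4.21, SE 0.0876, adjusted p = 3.32e-48, edgeR). Gata4 went from 325, 327 and 378 CPM to 12.7, 24.6 and 19.01 CPM (log2 -4.16, SE 0.149, adjusted p = 1.54e-34). Sox7, a transcription factor of the same lineage, fell by 3.83 on the log2 scale, Loxl2 by 2.36 and Pdgfra, the PDGF receptor of primitive endoderm, by 2.19. The summed level of the list was 9608 to 9960 CPM in WT, 4737 to 4850 CPM in G1 and 782 to 823 CPM in G4. WT lay above G1 and G1 above G4 with no overlap. Sparc, a matrix glycoprotein, was the member that rose, from 15.2 CPM ± 4.46 to 43.6 CPM ± 7.73 (SD, n = 3). The part of such cells in the changes of other genes and repeats was not tested.

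Pluripotency genes moved the other way. Of 6 tested genes of general pluripotency 4 rose and none fell, and of 8 naive pluripotency genes 6 rose and none fell. The shares over all tested genes were 20.6% for rises and 22.7% for falls. Tdgf1 had 6933, 6487 and 6646 CPM in G1 and 14899, 17964 and 16489 CPM in G4 (log2 1.30, SE 0.0567, adjusted p = 6.42e-30, edgeR), and Nanog 2391, 2099 and 2226 CPM and then 3290, 3812 and 3972 CPM (log2 0.72, SE 0.0668, adjusted p = 1.88e-14). Every G4 library lay above every G1 library for both genes, and 51.2% of all tested genes had no overlap in either direction. Tfcp2l1 rose by 0.86 on the log2 scale, Fgf4, the growth factor ESCs secrete, by 0.30, and Jam2, an adhesion molecule, by 2.37, from 58.7 CPM ± 10.3 to 303 CPM ± 9.11 (SD, n = 3). Prdm14 (2.54) and Esrrb (2.12), both naive factors, rose from low levels. Among 2-cell-like markers 3 of 41 could be tested, and Gm5662 (0, 1 and 1 counts in G1) rose to 46.1 CPM ± 14.4 and Usp17lc from 0 counts in G1 to 13.8, 12.3 and 9.50 CPM. Neither had a count in WT, so both passed the filter on low counts through G4, and a rise was the only change they could show.

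Targets of p53, the transcription factor activated by DNA damage, were lower in G4 for the most part, with 10 falls and 2 rises among 17 tested. All tested genes together gave 22.7% falls and 20.6% rises. Ccng1, a p53-induced cyclin, had 1542, 1508 and 1487 CPM in G1 and 692, 737 and 803 CPM in G4 (log2 -1.02, SE 0.0708, adjusted p = 9.42e-20, edgeR). Mdm2, the ubiquitin ligase of p53, went from 949, 870 and 953 CPM to 501, 537 and 575 CPM (log2 -0.78, adjusted p = 3.14e-13). Tnfrsf10b, a death receptor, fell by 0.78, Eda2r by 1.40 and Cdkn1a, the cell cycle inhibitor p21, by 0.39, and the call of Cdkn1a was lost with library totals (-0.25, adjusted p = 0.0798, edgeR). The 2 rises were Pmaip1, the apoptosis inducer Noxa (0.29), and Rrm2b, a ribonucleotide reductase subunit (1.12). G1 and WT lay close together for Mdm2, at 924 CPM ± 46.9 and 913 CPM ± 13.8 (SD, n = 3), whereas Tnfrsf10b was higher in WT, at 1059 CPM ± 97.6, than in G1, at 714 CPM ± 28.2.

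**Figure D5:**
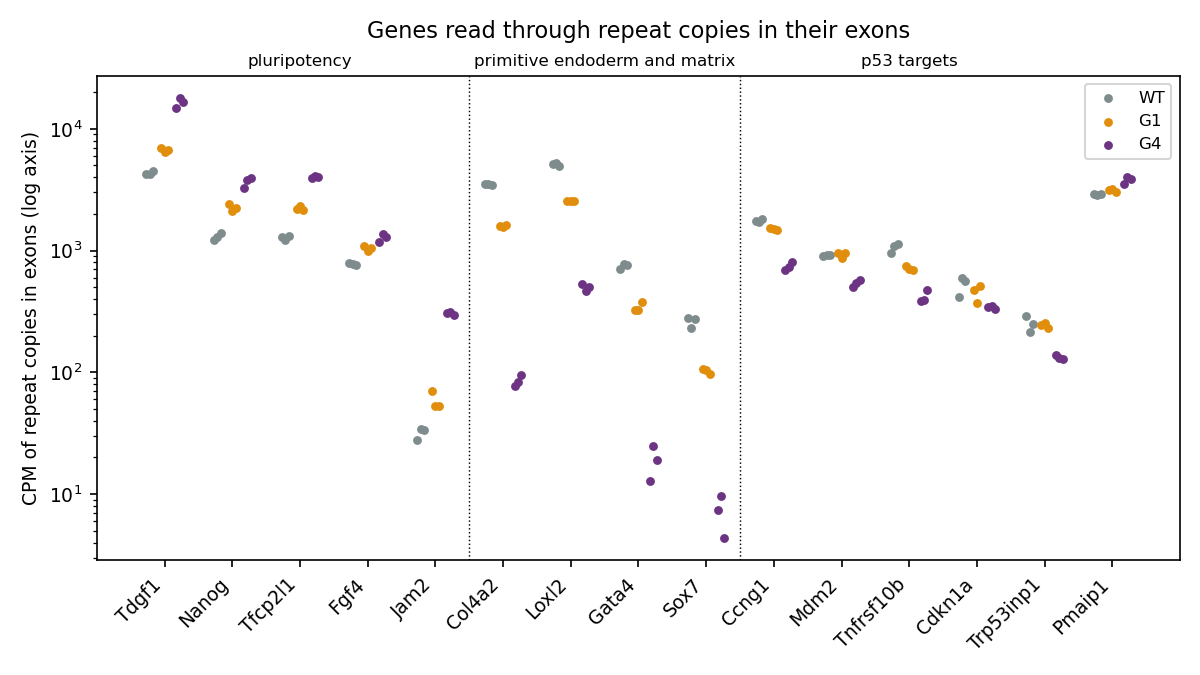
CPM (log axis) of the repeat copies in the exons of 15 genes in each of the 3 WT, 3 G1 and 3 G4 libraries, 1 point per library. Pluripotency genes (left) are higher in G4 than in G1, primitive endoderm and matrix genes (middle) lower, with Col4a2 at 77.5 to 95.9 CPM against 1548 to 1632 CPM, and p53 targets (right) lower except Pmaip1.

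Genes that silence retrotransposons were called in both directions. Of 23 tested genes of H3K9 methylation and TE silencing 5 (21.7%) rose and 8 (34.8%) fell (median -0.18). Over all tested genes 20.6% rose and 22.7% fell, so the share of rises is near that of all genes. Suv39h1, an H3K9 methyltransferase, had 272, 281 and 270 CPM in G1 and 86.0, 86.1 and 75.2 CPM in G4 (log2 -1.74, SE 0.123, adjusted p = 2.38e-19, edgeR), with WT at 385 CPM ± 54.0 (SD, n = 3). Zfp57, a zinc finger protein that protects imprints, fell by 0.59, whereas Setdb1, the H3K9 methyltransferase that acts on ERVs, rose by 0.34 (adjusted p = 0.036), a call lost with a filter of 5 counts in all (adjusted p = 0.0695) and without G1 replicate 1 (0.0859), G1 replicate 2 (0.169) or G4 replicate 2 (0.162, edgeR). Of 6 DNA methylation genes 4 rose and none fell, among them Tet1, a methylcytosine dioxygenase (from 198, 266 and 235 CPM to 375, 330 and 328 CPM, log2 0.56). Apobec3, a cytidine deaminase that restricts retroviruses, had 97.4, 79.1 and 83.7 CPM in G1 and 448, 428 and 473 CPM in G4 (log2 2.38, SE 0.125, adjusted p = 1.37e-25). The tested interferon and inflammation genes were split, with 5 rises in 13, Apobec3 among them, and 4 falls, among them Eif2ak2, the double-stranded RNA sensor PKR (-0.70).

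Genes of the telomere and of DNA repair were called in both directions. Of 9 tested genes of telomerase and shelterin, Dkc1, the protein that binds the RNA of telomerase, rose by 0.39 (from 362 CPM ± 28.5 to 473 CPM ± 16.1, SD, n = 3, adjusted p = 0.000352, edgeR) and Terf2ip, the shelterin protein Rap1, fell by 1.36 (from 44.9 CPM ± 8.49 to 17.2 CPM ± 1.83, adjusted p = 3.3e-05). Of 32 DNA repair genes 7 rose and 2 fell, a share of rises near the 20.6% of all tested genes, and 22.7% of all tested genes fell. Examples of the rises are Mdc1, a scaffold of damage signalling, from 433 CPM ± 34.3 to 904 CPM ± 48.6 and Chek2, a checkpoint kinase, from 71.7, 54.3 and 87.1 CPM to 151, 173 and 154 CPM. Of 20 cell cycle genes 6 rose and 2 fell. The deepest fall was that of Mad2l1 of the spindle checkpoint (log2 -2.11), which lies on proximal chromosome 6, where most genes fell. Of 15 apoptosis genes 4 rose and 5 fell. Of 2 mesoderm genes 1 rose, the 1 trophectoderm gene tested was not called, and no primed pluripotency or neuroectoderm gene could be tested.

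Outside these lists, large rises were seen at Gm32885 and at AI662270, a non-coding gene that went from 43.9, 35.0 and 31.7 CPM to 600, 690 and 688 CPM (log2 4.16, SE 0.133, adjusted p = 2.58e-37, edgeR), with WT between at 105 to 139 CPM. Gm11427 (3.69) overlaps AI662270 on chromosome 11, so their reads may not be separable, and rose too. Platr11, another non-coding transcript of ESCs, rose by 4.03, Zic5, a zinc finger factor of the neural plate, by 3.45, and Slfn9, of the Schlafen family, by 3.26. G530011O06Rik (4.06) lies at the pseudoautosomal end of chromosome X. The largest falls were Srgn, the proteoglycan serglycin (log2 -5.79, from 63.1, 74.5 and 88.2 CPM to 2.12, 0 and 1.73 CPM), Tcf23 (-5.77) and Podxl, the surface sialomucin podocalyxin on proximal chromosome 6 (-4.64, from 280 CPM ± 11.2 to 10.8 CPM ± 5.15). WT was above G1 for all 3, at 167, 329 and 541 CPM. Plaur, the urokinase receptor, fell by 3.30 on the log2 scale.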

How the data were processed

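RNA was measured over repeat copies in 9 ESC libraries, 3 per group. The table deposited by the authors holds estimated counts per copy, some of them not whole. The submitters' processing notes name the mm10 build and the tools STAR 2.5.3a, FastQC 0.11.9 and featureCounts. How reads shared between copies were divided is not given in the sources used here. A second table, the same counts divided by 1 factor per library, was not used. Columns headed Control were taken as WT, by the replicate number in the titles.

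Counts were summed by repeat name (subfamilies), kept per copy, or summed over copies with at least 0.5 of their length in exons of exactly 1 gene (GENCODE M21, bedtools 2.31.1), and rounded. Copies with under 1 count over the 9 libraries together were left out, and 13278 copies, 853 subfamilies and 4506 genes passed filterByExpr. G4 was tested against G1 with edgeR 4.0.16 (R 4.3.3, quasi-likelihood, robust, TMM, two-sided, all 9 libraries in the fit, no covariate), with Benjamini-Hochberg adjustment over all features of a level and a threshold of 0.05. CPM used TMM-scaled totals, or plain totals for loci. Copies more than 5000 bp from a gene counted as far from genes, and loci joined called copies within 10 kb. Class shares had an exact permutation test. Folds against a group at 0 used a floor of 3 counts over the group, and intervals (95%) and floors cover counting error only. With about 1000000 counts per library, low copies could not be tested. The divergence of a copy was read from its row name in the table. Promoters came from RefSeq (GRCm38.p6), and those of 1 chromosome were not used. The edgeR test was tested on simulated data.

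The members and gene lists were chosen with earlier results of these data known. Named were the 10 subfamilies, 6 copies and 12 genes with the largest rise and fall among those called without overlap between groups and with a mean of at least 50 (subfamilies) or 20 counts, up to 4 abundant called members of each list, and a set of well-known subfamilies. A lack of overlap between G1 and G4 was found in 51.3% of all tested subfamilies, 48.5% of copies and 51.2% of genes. Not every item the rule allows is described. DESeq2 1.42.0 served as an alternative, with other scalings, filters, blocks and left-out libraries. The alternatives restricted to copies far from genes, copies with whole values, copies off chromosome 6, subfamilies without their largest copy and a block within G1 and G4 were added after seeing the data. Python 3.11.15, pandas 2.3.3 and SciPy 1.17.1 were used.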

Additional observations from a re-analysis of the deposited data

How the results depend on the processing

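The 103 named subfamilies, copies and genes had 1545 values under the alternatives, of which 1506 kept both the direction and the side of the threshold, 27 no longer passed it and 12 turned sign. All 12 were subfamilies, and none of the 314 values of the 22 copies was among either. Only 1 of these copies could be tested with whole values and 6 far from genes. The copies had also been chosen for large changes without overlap. Among subfamilies, 117 of 388 were called over copies far from genes, 215 of 759 without the largest copy of each, and 55 with DESeq2 at an unadjusted p under 0.05 and a fold over 2, against 360 of 853. Among copies, 471 of 997 far from genes and 3271 of 8924 with whole values were called, against 5131. With DESeq2 at the same p and fold 948 genes were called, against 1952. These settings test fewer features or ask for a larger fold. With library totals 72.1% of the called subfamilies rose, against 46.1% with TMM, and for genes 59.7%, against 47.6%. Without a filter other than 5 counts in all, 2864 of 4793 called copies rose (59.8%), against 2564 of 5131.

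Over copies with whole values the sign turned for ETnERV-int (0.14), L1Md_A (0.13), MMERGLN-int (0.048), MMERGLN_LTR (0.21), MMETn-int (1.44), MMVL30-int (0.15), RLTR13G (0.15), RMER16-int (0.36) and Ricksha_c (-0.84). Without its largest copy it turned for FordPrefect (0.40) and MMERGLN-int (0.065), and over copies far from genes for L1Md_F (-0.10). Over copies with whole values the call was also lost for MTEb-int (-0.13), RLTR34B_MM (0.32) and MMERVK10C-int (-0.065), besides those named with their results. These subsets leave out the copies that hold most counts, and the cause was not tested. Leaving out 1 library gave 310 to 351 subfamilies, 4486 to 5033 copies and 1698 to 1818 genes. The LTR share then differed by -3.21 to -2.76 percentage points, SINEs by 2.51 to 2.83, LINEs by 0.19 to 0.41 and DNA transposons by -0.040 to -0.011.

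The groups share replicate numbers, but libraries of the same number did not deviate together (correlations of -0.015 to -0.006), so the numbers were not taken to pair them. With a replicate block 351 subfamilies, 4968 copies and 1893 genes were called, and 319, 4733 and 1834 with the block within G1 and G4. The depth limits single copies most, since 487790 of the 623916 copies had under 5 counts over the 6 libraries.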
